A study of Acropora tenuis with 242 samples.

Results

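Juveniles of the reef-building coral Acropora tenuis under the symbiont uptake treatment labelled SED were set against juveniles under the treatment labelled SS, both at Ambient temperature. The 58 libraries were taken by their labels, 28 SED and 30 SS, out of 146 juvenile and 96 larval libraries in the series. They came from the same 10 crosses, with 2 or 3 SED and 3 SS libraries in each cross. Reef corals house dinoflagellate algae inside cells of their gastrodermis and receive photosynthetic products from them. In Acropora the larvae and young juveniles usually take these algae up from their surroundings, and different algae can differ in what they give the host. The establishment of this partnership is known to involve recognition at the host cell surface, engulfment of the alga and a muted immune response.

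The crosses were made from gametes of 5 populations of the Great Barrier Reef, coded SB, LS, DR, CU and BK, and crosses are written as labelled (CUxDR). SED juveniles and SS juveniles differed by uptake treatment alone in the labels, which do not spell out the codes, state the algae each animal held, or give an age. The other groups used were 32 D1 and 29 C1 juvenile libraries at Ambient, 15 SED, 6 SS and 6 D1 juvenile libraries at Hot, and 96 larval libraries of 11 crosses, sampled before the temperature exposure (Pre) or after it at Ambient or Hot. Larvae carry no symbiont treatment in the labels, and each larval library was made from a pool of larvae. Whether a juvenile library held 1 or several animals is not given, nor whether the replicates were kept in separate tanks, so p-values measure the spread between libraries. RNA was measured by tag-based sequencing, which counts a short stretch of each transcript for each gene model. The models carry identifiers beginning with Amillepora and no gene names, so none is given a function here and tissue markers were not checked.

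Total counts ran from 160004 to 448569 in SED libraries (median 292326.5) and from 158481 to 586229 in SS libraries (median 361993.5), so SED libraries were on the whole shallower. The column names also carry an index number. Within each of the 10 crosses every SED library had a higher index number than every SS library at Ambient, so the treatment and this order cannot be told apart within a cross. Levels are CPM, counts per unit of library size after adjustment of those sizes by edgeR's TMM method. Calls were made in edgeR's quasi-likelihood test where the Benjamini-Hochberg adjusted p was 0.05 or less.

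SED juveniles differed from SS juveniles in many gene models by small amounts and in a few by very large ones, and the large differences ran almost wholly one way. Of 8954 models tested, 628 were higher in SED (7.01%) and 917 were lower (10.2%), together 17.3%. Most of these differences were under 2-fold, in 599 of the higher models and 785 of the lower ones. Among those called at 2-fold or more, 29 were higher in SED and 132 lower. A group of 22 models was at least 8-fold lower in SED, and 0 models were higher by as much. The samples are whole juveniles, in which fewer cells of a type and less RNA per cell cannot be told apart.

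**Figure D1:**
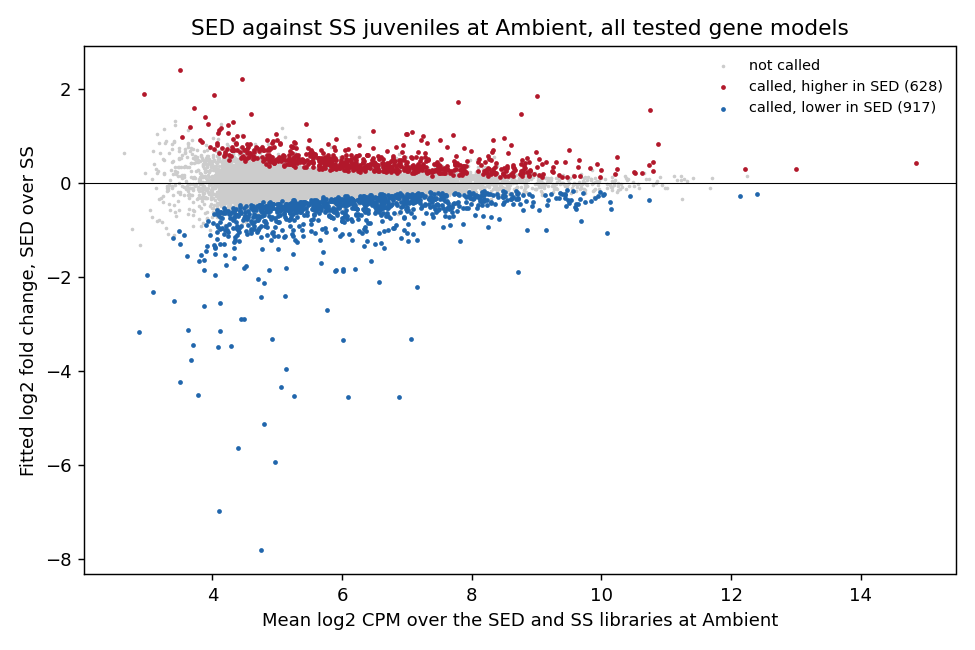
Fitted log2 fold change of SED over SS at Ambient against mean log2 CPM, each point a tested gene model, with the 628 called higher in red and the 917 called lower in blue. The far end of the plot is below the line, where the lowest value is -7.82, while the highest called value above the line is 2.42.

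The balance of directions depended on the method. DESeq2's size factors in edgeR gave 733 models higher and 835 lower in SED, and DESeq2 itself gave 759 and 869. Thinning every library to 158481 counts left 940 calls among 6029 models, 413 higher and 527 lower in SED, with 15 at least 8-fold lower. With the index number as a covariate over all Ambient juvenile libraries, 1556 models were called. That fit includes late-numbered D1 libraries of CUxDR and DRxSB, far above all other Ambient index numbers. They can dominate the slope on the index, so the count of 1556 does not show that order among the 58 libraries is without effect. The early-numbered libraries alone gave 1589 calls without the covariate. The same covariate among the early-numbered libraries alone, which hold all 58 compared here, left 768 calls, 486 of them lower in SED, with 20 at least 8-fold lower. Juvenile titles carry no replicate number, so the libraries of each group were numbered here by their order in the series. Leaving out the libraries numbered 2 in each group left 754 calls, 320 higher and 434 lower, and 22 of the calls were at least 8-fold lower.

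Amillepora09062-RA was detected in every SS library and in almost no SED library. It ran from 0 to 3.55 CPM in SED libraries, with a median of 0, and from 33.1 to 303.6 CPM in SS libraries, with a median of 118.3. The groups did not overlap: 26 of 28 SED libraries held no count of it, and no SS library was without one. Summed over libraries there were 2 counts among 8554456 in SED and 1510 among 11592175 in SS. That is a 557.2-fold higher rate in SS, with an exact 95% Poisson interval of 154 to 4605-fold that covers counting error alone. The fitted log2 fold change was -7.82 (adjusted p = 1.25e-46). On 2 counts in SED its size is known no more closely than that interval. It averaged 95.2 ± 32.2 CPM in D1 (SD, n = 32) and 121.5 ± 41.2 CPM in C1 (SD, n = 29), so SS lay with the other treatments and SED apart from all 3.

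Amillepora04293-RA showed the same near absence in SED with a far wider spread in SS. It ran from 0 to 3.50 CPM in SED libraries, with a median of 0, and from 3.54 to 304.2 CPM in SS libraries, with a median of 44.3. The 2 highest SED libraries and the lowest SS library held 1 count each, so at their edge the groups were tied in counts and set apart on the CPM scale by library size alone. Summed counts were 2 in SED and 826 in SS, which makes a 304.8-fold higher rate in SS (exact 95% interval 84.1 to 2521-fold). The fitted log2 fold change was -6.98 (adjusted p = 7.37e-19), and its size too is known no more closely than the interval. D1 juveniles averaged 21.8 ± 31.8 CPM (SD, n = 32) and C1 juveniles 21.7 ± 16.6 CPM (SD, n = 29), both below the SS mean of 71.4 ± 73.9 CPM (SD, n = 30).

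The models that were higher in SED gave overlapping groups. Amillepora19310-RA ran from 0 to 64.6 CPM in SED libraries, with a median of 11.8, and from 0 to 23.1 CPM in SS libraries, with a median of 0. It was uncounted in 5 of 28 SED and 17 of 30 SS libraries, and 8 SED libraries exceeded the highest SS library. Its fitted log2 fold change was 2.42 ± 0.41 (SE, adjusted p = 2.67e-06), on 157 counts in SED and 42 in SS. Amillepora24973-RA ran from 5.13 to 136.3 CPM in SED libraries, with a median of 32.7, and from 0 to 31.1 CPM in SS libraries, with a median of 7.07. Above the highest SS library stood 15 of the 28 SED libraries. Its fitted log2 fold change was 2.22 ± 0.28 (SE, adjusted p = 2.64e-10).

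**Figure D2:**
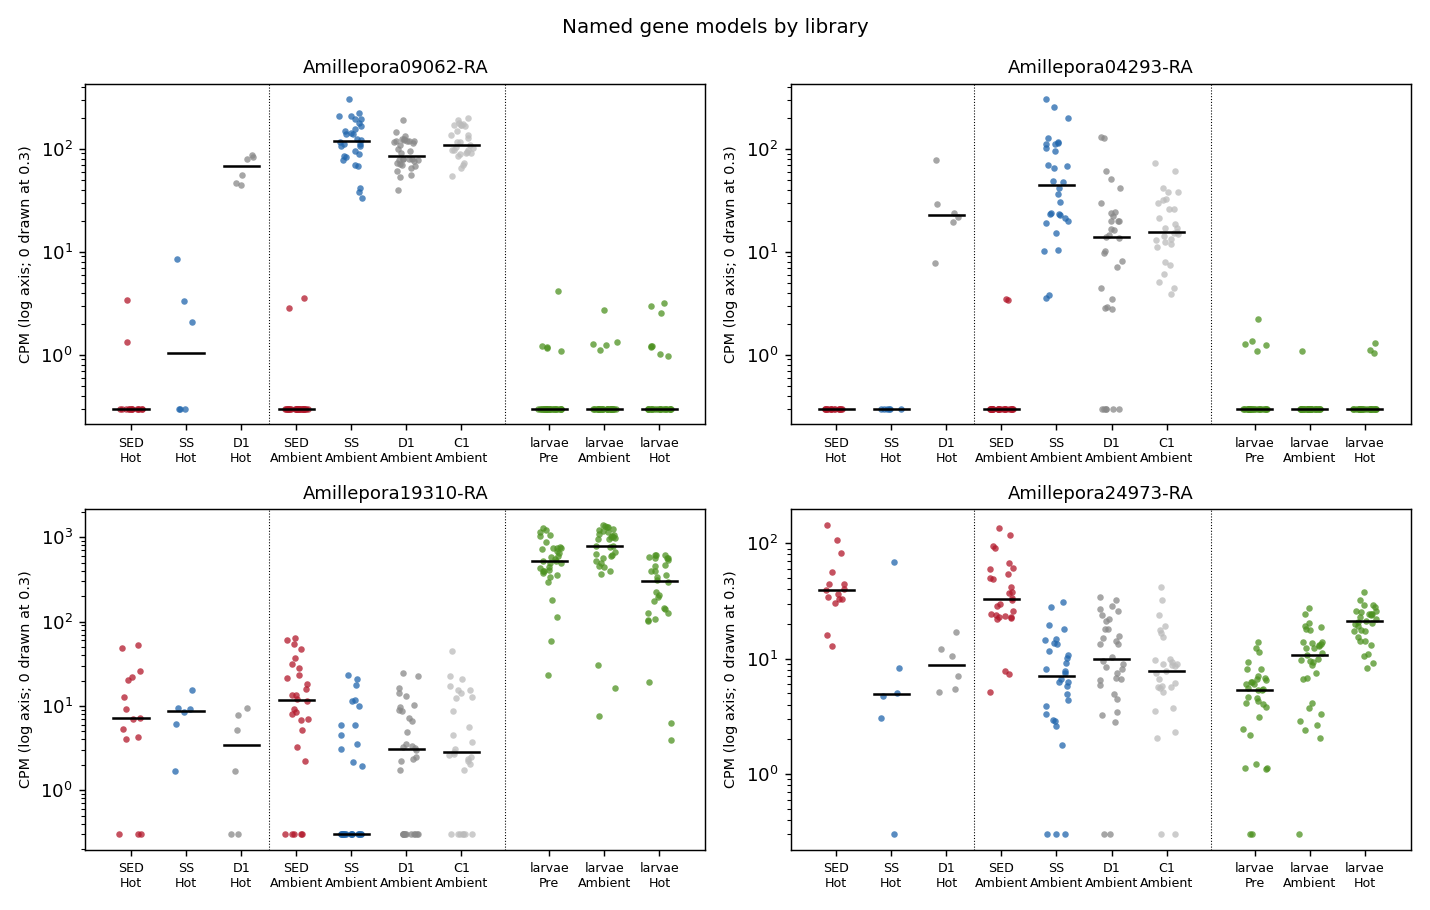
CPM (log axis, 0 drawn at 0.3) of the 4 named gene models in each library of each juvenile group and of larvae, with bars at the medians. SED points of Amillepora09062-RA and Amillepora04293-RA sit at or near 0 while SS points at Ambient reach 303.6 and 304.2 CPM, and for the other two models the SED and SS points overlap at both temperatures, with a higher SED median at Ambient.

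Full separation of the groups, with no SED library inside the range of the SS libraries, occurred in 9 of the 8954 tested models (0.101%). All 9 were lower in SED, and 8 of them belonged to the 22 that were at least 8-fold lower. In unscaled counts 6 of the 9 were separated too. Among the means of the 4 treatments at Ambient, that of SED was the lowest in 21 of these 22 models. The SED mean was the lowest in 891 of the 917 lower models (97.2%) and the highest in 582 of the 628 higher models (92.7%). Over all tested models it was the lowest in 38.7% and the highest in 28.1%. The SED and SS means chose these models, so the position against D1 and C1 is a description.

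The 22 models spanned a wide range of levels. Their mean levels ran from 0.229 to 44.0 CPM in SED, with a median of 2.53, and from 6.07 to 557.8 CPM in SS, with a median of 82.9. Their fitted log2 fold changes ran from -7.82 to -3.12. Summed over the 22, SED libraries held 89.6 to 237.6 CPM (median 143.5) and SS libraries 1441 to 4150 CPM (median 2946). The lowest SS library thus lay above the highest SED library. The same sum was 1108 to 3439 CPM in D1 and 1516 to 4546 CPM in C1 at Ambient.

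The difference between SED and SS was then followed cross by cross. Among the 8954 tested models, 499 differed in the same direction in all 10 crosses (5.57%). Of the 628 models called higher in SED, 106 were higher in 10 of 10 crosses and 220 in 9, and 90 were the same way in fewer than 8. Of the 917 called lower, 354 were lower in 10 of 10 crosses and 325 in 9, and 67 were the same way in fewer than 8. Agreement went with size: 92 of the 132 models at least 2-fold lower and 12 of the 29 at least 2-fold higher pointed the same way in all 10 crosses, and so did 19 of the 22 at least 8-fold lower. These libraries also gave the calls, so the counts describe the calls and do not test them.

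**Figure D3:**
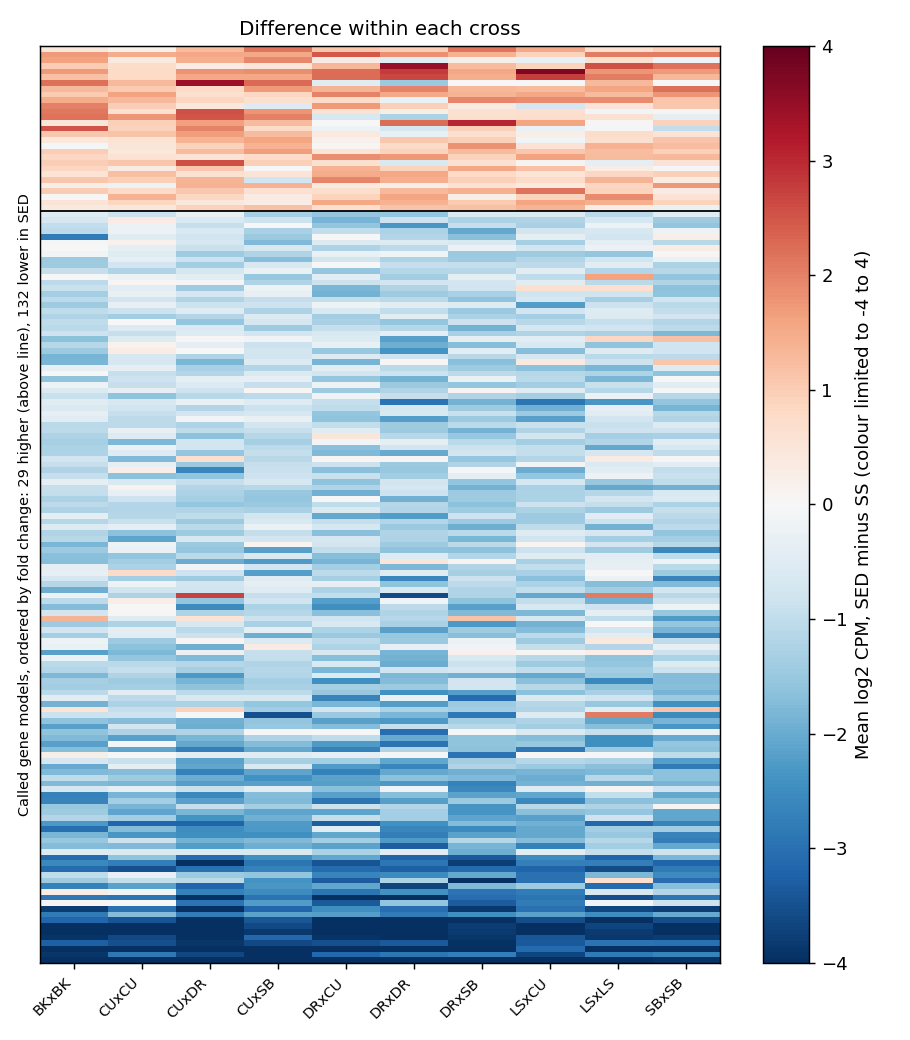
Difference in mean log2 CPM, SED minus SS, within each of the 10 crosses (columns) for the 29 models at least 2-fold higher and the 132 at least 2-fold lower in SED (rows, ordered by fitted fold change). Red is higher and blue lower in SED, and the columns show the same colours down most of their length, with the deepest blue in the lowest rows of every cross.

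Amillepora09062-RA was separated in every cross, from 0 CPM in all 3 SED libraries against 115.5, 139.4 and 303.6 CPM in SS of DRxSB to 0, 0 and 2.85 CPM in SED against 67.3, 88.3 and 110.5 CPM in SS of SBxSB. Those were the largest and the smallest of its 10 differences, -5.07 and -3.93 in mean log2 CPM. The test within single crosses called it in 10 of 10. Amillepora04293-RA also had no overlap in any cross, by a single count in DRxCU, with differences of -3.97 in CUxSB to -2.66 in SBxSB, but its SS libraries scattered, as in LSxCU at 3.82, 102.8 and 304.2 CPM against 0 in the 3 SED libraries. The within-cross test called it in 0 crosses. Amillepora24973-RA was separated in 6 crosses, and its difference ran from 0.88 in LSxCU to 2.46 in DRxCU. Amillepora19310-RA was separated in 3 crosses, and its difference ran from 0.17 in CUxCU to 2.14 in DRxSB. In CUxCU it had 3.25, 15.9 and 47.9 CPM in SED against 5.88, 17.9 and 21.0 CPM in SS, an overlap. The within-cross test called Amillepora24973-RA and Amillepora19310-RA in 0 crosses each.

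Within single crosses, with 5 or 6 libraries each, few models could be called, and those called were mostly lower in SED. With 1 spread shared by all crosses, the test gave 68 calls in DRxSB (0.697%), of which 57 were lower, and 64 in LSxCU (0.656%), of which 45 were lower. It gave 47 in CUxDR (0.482%), 39 in DRxDR (0.4%), 29 in DRxCU (0.297%) and 28 in SBxSB (0.287%). The remaining crosses gave 26 in BKxBK (0.267%), 24 in LSxLS (0.246%), 17 in CUxCU (0.174%) and 17 in CUxSB (0.174%), where BKxBK and CUxCU had no call higher in SED. The order of the crosses depended on fitting them together. Fitted alone, with filter, size adjustment and spread set anew, LSxCU gave 7 calls, DRxSB 39, DRxDR 24, DRxCU 14, SBxSB 13 and BKxBK 42. CUxDR had the most, with 55. In the shared fit, altogether 168 models were called in at least 1 cross, 44 in 2 or more, 20 in 5 or more and 9 in all 10, and 0 were called in opposite directions in different crosses. Of the 22 models with the deepest fall, the test called between 9 in LSxLS and 16 in DRxSB.

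A test of whether the SED minus SS difference varied among the crosses called 0 of 9753 models (0%), with 476 at an unadjusted p under 0.05. With 2 or 3 SED and 3 SS libraries in each cross it could miss such variation, so it does not show a uniform difference. Amillepora07728-RA, picked for its wide range among the models called over all crosses, differed by 0.05 in BKxBK and by -3.36 in DRxCU in mean log2 CPM. The edgeR test among crosses did not call it. DESeq2's likelihood ratio test called 3. Without a filter on low counts edgeR called 493 of 24098 models. None of the 4 named models came near a call, with adjusted p = 0.9998 for each.

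Each cross was also set against calls made without it. A fit that left a cross out called between 1161 and 1462 models that were also tested with all crosses, and the left-out cross had the same direction in 72.2% to 90.3% of them, with a median of 82.1%. For all tested models, the direction of the left-out cross matched the mean of the other 9 in 58.5% to 66.01%. The slope of the left-out cross on the mean difference of the other 9 over the called models ran from 0.641 in CUxCU to 1.03 in DRxSB, with a median of 0.870. Leaving out any 1 of the 6 CUxCU libraries put its slope between 0.571 and 0.718, and leaving out any 1 of the 6 in DRxSB put that slope between 1 and 1.06. The models are not independent replicates. Calls in the other 9 crosses chose them, which tends to enlarge the mean difference of those crosses and to lower the slope. The slopes are thus a description, and a slope under 1 does not show a smaller difference in the left-out cross.

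**Figure D4:**
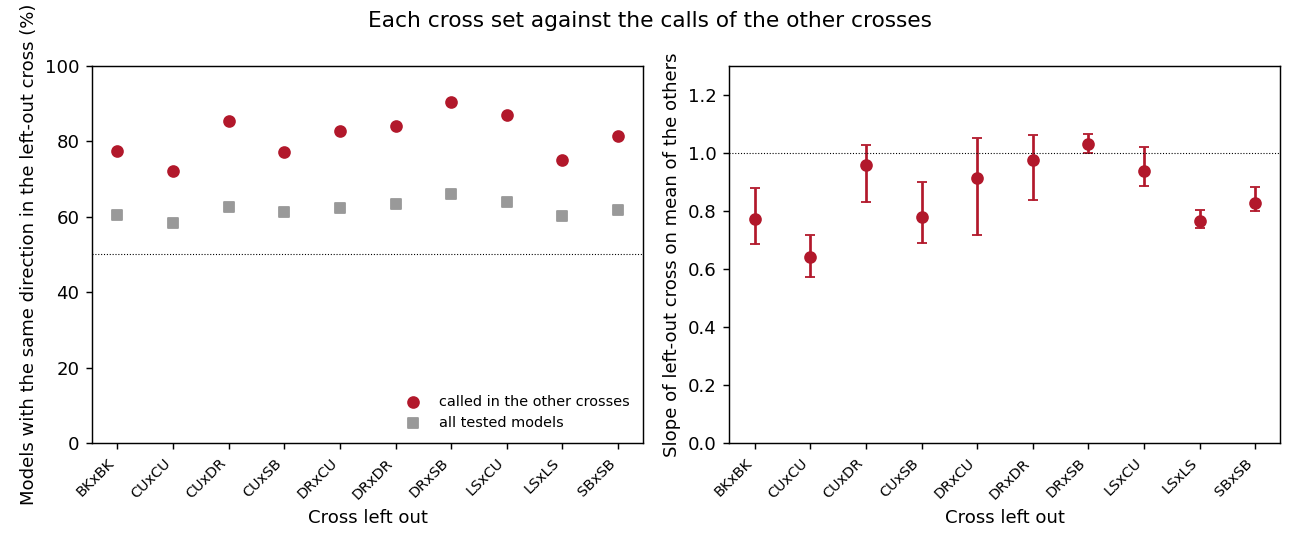
Left, the share of gene models with the same direction in the left-out cross, for models called in the other crosses (circles) and for all tested models (squares). Right, the slope of the left-out cross on the mean of the others, with the range over leaving out each of its libraries. Circles lie above squares in all 10 crosses, from 72.2% to 90.3%, and CUxCU has the lowest slope, 0.641.

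At Hot, SED and SS juveniles could be compared in DRxSB and SBxSB, with 4 libraries of each treatment. No model was called among 8043 (0%), with 378 at an unadjusted p under 0.05, and DESeq2 called 0, with 200 at an unadjusted p under 0.05. Leaving out the libraries numbered 1 or 2 gave 142 and 29 calls, and dropping the low-count filter gave 77. Leaving out a number kept 1 library for each cross and treatment, too few to read those counts as differences at Hot. Of the 628 models higher in SED at Ambient, 576 were tested at Hot, and 336 of them (58.3%) had a log2 fold change above 0, with a median of 0.06. Of the 917 lower ones, 816 were tested and 442 had a log2 fold change below 0, with a median of -0.02. Over all 7851 models tested at both temperatures, 3869 were above 0 (49.3%) and 3982 below, with a median of -0.0042.

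The 22 models with the deepest fall had low levels in both treatments at Hot, and 2 of them passed the low-count filter there. Their summed level was 102.1 to 783.4 CPM in 15 SED libraries (median 225.9) and 100.8 to 599.3 CPM in 6 SS libraries (median 242.2). The SS libraries at Hot thus lay below every SS library at Ambient, where the sum was 1441 CPM or more. In BKxBK the sum was 170.5 and 599.3 CPM in SS at Hot, against 2051, 2297 and 3127 CPM in SS at Ambient. In DRxSB it was 250.3 and 315.5 CPM at Hot against 2873, 3153 and 3863 CPM at Ambient, and in SBxSB it was 100.8 and 234.0 CPM at Hot against 1848, 2480 and 2852 CPM at Ambient. All 22 models had a lower SS mean at Hot than at Ambient in these 3 crosses, at a median ratio of 0.0726. Over all models tested at Ambient, 51.5% did, at a median ratio of 0.989. D1 juveniles at Hot kept higher sums, 902.7 to 2393 CPM in 6 libraries. The 22 models were chosen on the Ambient libraries, which are 1 side of this comparison.

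Most SS libraries at Hot, 5 of 6, carry index numbers in a late block, whereas all SED and SS libraries at Ambient are in an early block, with a gap between the blocks. The SS library of SBxSB in the early block had a sum of 234.0 CPM, inside the range of the other 5. That is 1 library, and the part of the block in the low sums was not tested. Amillepora09062-RA was at 0 to 8.50 CPM in the 6 SS libraries at Hot, against 33.1 CPM or more in SS at Ambient. Amillepora04293-RA had 0 counts in all 15 SED and all 6 SS libraries at Hot, and 77 counts over the 6 D1 libraries. The 2 models named as higher in SED at Ambient were not called at Hot. In the shared crosses Amillepora24973-RA had 12.7 and 44.2 CPM in SED against 4.77 and 5.03 CPM in SS of DRxSB. In SBxSB it had 32.5 and 36.0 CPM in SED against 8.23 and 69.3 CPM in SS, an overlap, and its fitted log2 fold change was 0.67 (adjusted p = 0.998). Amillepora19310-RA had a fitted log2 fold change of 1.91 (adjusted p = 0.707) in these crosses. Over all Hot libraries its median was 7.28 CPM in 15 SED libraries of 7 crosses and 8.82 CPM in 6 SS libraries of 3 crosses.

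**Figure D5:**
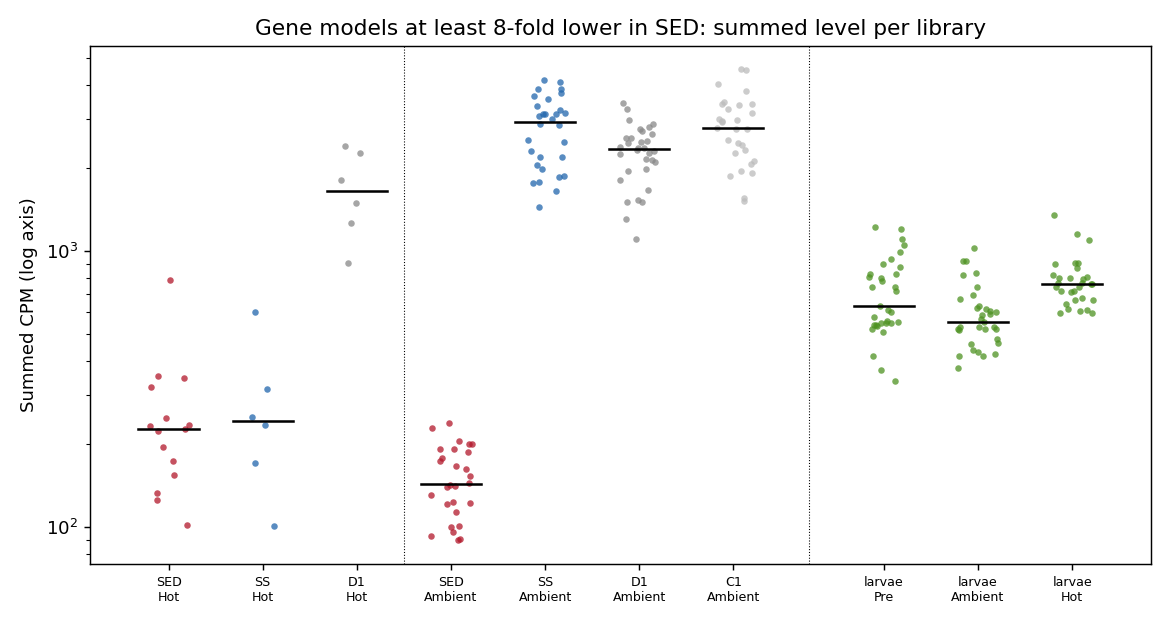
Summed CPM (log axis) of the 22 gene models at least 8-fold lower in SED, for each library of each juvenile group and of larvae, with bars at the medians. SED and SS libraries at Hot reach at most 783.4 and SED libraries at Ambient 237.6, SS libraries at Ambient start at 1441, and larval libraries lie between 337.3 and 1349.

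The change of the SED minus SS difference with temperature was tested in DRxSB and SBxSB after these levels had been seen. It called 16 of 8514 models (0.188%), with 670 at an unadjusted p under 0.05. The difference was more positive at Hot in 15 of the 16. Of the 16 models, 14 were among the 917 lower in SED at Ambient, 5 of them in the group of 22, and 0 were among the 628 higher. Among the group of 22, 19 were tested, and the median change was 4.23 on the log2 scale, against 0.02 over all models tested at Ambient. The Ambient libraries of these crosses also made the Ambient calls, which pushes models lower in SED towards a positive change, so these counts and this median are a description. Leaving out the libraries numbered 1, or those numbered 2, left 1 call each time, and DESeq2 gave 35. Most Hot libraries carry late index numbers, so the part of that block in these calls was not tested.

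Larvae, which had no uptake treatment, were used to place the differing models on a life-stage scale. The larval table was normalized apart from the juvenile one, and only juvenile column names carry the word host. Of the 11 larval crosses, 8 were also among the 10 juvenile crosses. Levels set across the stages are therefore approximate and come from partly different crosses. The 22 models with the deepest fall had a median of 2.72 CPM in Ambient larvae, near the SED median of 2.53 and far below the SS median of 82.9. Larvae lay below the SED mean in 10 of the 22, or 45.5%, against 55.6% of all tested models. They lay below the SS mean in 20 of the 22, or 90.9%, against 57.9% of all, and a high SS mean relative to SED was what chose the 22. At the other end, the 3 highest of the 22 reached 201.2, 185.9 and 112.3 CPM in Ambient larvae. Their juvenile means were 23.1, 3.46 and 44.0 CPM in SED, against 557.8, 34.55 and 455.4 CPM in SS. The sum of the 22 was 337.3 to 1222 CPM in Pre, 375.5 to 1024 CPM in Ambient and 594.5 to 1349 CPM in Hot larvae. All these sums lay above every SED library at Ambient and below every SS library at Ambient. The highest sum of each range was in CUxBK, which has no juvenile libraries.

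Amillepora09062-RA and Amillepora04293-RA were near 0 in larvae as in SED juveniles. Amillepora09062-RA had 8, 6 and 12 counts in all Pre, Ambient and Hot larvae, with no cross mean above 2.30 CPM. Amillepora04293-RA had 6, 1 and 3 counts. The models higher in SED differed from each other in larvae. Amillepora24973-RA averaged 5.28 ± 2.66 CPM at Pre (SD, n = 11 crosses), 10.99 ± 6.43 CPM at Ambient (n = 11) and 20.8 ± 4.83 CPM at Hot (n = 10), against juvenile means of 43.9 CPM in SED and 8.97 CPM in SS. Amillepora19310-RA averaged 586.4 ± 326.6 CPM at Pre, 803.4 ± 405.7 CPM at Ambient and 311.7 ± 210.0 CPM at Hot over the same crosses, against 18.0 CPM in SED and 4.07 CPM in SS juveniles. It was thus far more abundant in larvae than in any juvenile group, except in larvae of CUxBK, a cross with no juvenile libraries. There the larval means were 65.2 CPM at Pre, 18.3 CPM at Ambient and 9.79 CPM at Hot.

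Larval levels were also set against the juvenile means over whole classes. The same juvenile means chose the classes, which in part fixes where larvae fall, so the shares are a description. Of the 628 models higher in SED, Ambient larvae were below the SED mean in 84.1% and below both means in 71.7%. Of the 917 models lower in SED, larvae were below the SED mean in 26.7% and above both means in 52.7%. Over all 8954 tested models larvae were below the SED mean in 55.6%, below both in 52.3% and above both in 38.8%. Among the 132 models at least 2-fold lower, larvae were above both means in 17.4%, between them in 41.7% and below both in 40.9%. Among the 29 models at least 2-fold higher, larvae were below both means in 24.

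Heated larvae gave a readout that shares no library with the juvenile contrast. Among the 8872 models tested in both, 26.8% were called higher in Hot than in Ambient larvae and 23.3% lower. Of the 901 models lower in SED that were tested, 34.3% were called higher in Hot larvae and 18.3% lower, with a median log2 fold change of 0.09. Of the 621 models higher in SED, 22.9% were called higher in Hot larvae and 31.6% lower, with a median of -0.06. The median over all 8872 models was 0.02. Among the 22 models with the deepest fall, 15 were tested in larvae, 6 were called higher at Hot and 0 lower. Amillepora24973-RA was higher in Hot larvae, with a log2 fold change of 1.06 ± 0.23 (SE, adjusted p = 0.00148), and Amillepora19310-RA was lower, at -1.40 ± 0.13 (SE, adjusted p = 4.00e-07). Each thus moved with larval heat in its own direction, though both were higher in SED juveniles.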

How the data were processed

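RNA from larval and juvenile tissue was extracted with the RNAqueous kit for tag-based sequencing (labels' protocols). Raw read counts were deposited by the authors, with 25349 gene models for juveniles and 25142 for larvae. The submitters' processing notes name Bowtie2 2.2.9. The genome build, annotation, counting tool and treatment of duplicate reads were not given in the sources used here. Juvenile column names carry the word host and larval ones do not, and how algal reads were handled is not spelled out. Whether algal reads were counted for any model was not tested. Reads of near-identical copies may be split between models.

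Columns were mapped to samples by title. No pair of replicate libraries agreed within sampling noise (56 pairs, chi-square per degree of freedom 2.20 to 7.33). Tests used edgeR 4.0.16 in R 4.3.3 (filterByExpr, TMM, glmQLFit, glmQLFTest) and were tested on simulated data. SED against SS was fitted on all 119 Ambient juvenile libraries with cross and treatment as terms. Cross by treatment used the 58 libraries, as did single-cross contrasts, which came from 1 fit with a term for each cross and treatment. Hot used 8 libraries with cross as a term. Larval heat used counts summed per cross and temperature in 10 crosses. Treatment by temperature used 20 libraries and was added after the data were seen, as were the index covariate in the early block, the left-out crosses and their settings. Log2 CPM used a prior count of 2. Each SE of a fitted log2 fold change is its size over the square root of the test's F, an approximation. The comparison and lists were chosen with earlier results of these data known. Named models are the 2 with the largest fold change in each direction among calls whose mean log2 CPM was 3 or more, with 1 direction in all 10 crosses. No model was named from the test among crosses. Alternatives were DESeq2 1.42.0, edgeR with DESeq2's size factors, no filter on low counts, fewer libraries or sums, covariates, thinning, a stricter threshold, and leaving out replicates or crosses.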

Additional observations from a re-analysis of the deposited data

Results flagged for a closer look

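The SED minus SS difference changed between Hot and Ambient in 16 gene models by a test of that change in DRxSB and SBxSB. Of the value groups of 4 to 10 checked for a library or cross far from the rest, 4 of 25 gave one, and chance gives about 1 in 20. That rate does not hold for groups mostly at or near 0, where a few counts stand apart, as for Amillepora04293-RA and Amillepora09062-RA below. Amillepora24973-RA stood at 69.3 CPM in 1 SS library of SBxSB at Hot, against 8.23 CPM or less in the other 5 SS libraries at Hot. It averaged 9.34 CPM in Hot larvae of CUxBK, against 18.9 CPM or more in the other 9 crosses. Amillepora09062-RA averaged 2.30 CPM in Hot larvae of CUxCU, with the next cross at 0.980 CPM. Amillepora04293-RA averaged 2.29 CPM in SED juveniles of DRxSB, on 2 counts, and was at 0 in SED of the other 9 crosses.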

How the results depend on the processing

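The SED against SS count of 1545 fell outside 1.5 times under thinning (940), the index covariate in the early block (768), a false discovery rate of 0.01 (852) and without the libraries numbered 2. Leaving out replicates or crosses gave 754 to 1558 calls. The group at least 8-fold lower numbered 35 without a low-count filter and 21 to 23 with a replicate or cross left out. All 4 named models kept their direction and call under each alternative that tested them, 14 for Amillepora19310-RA and 23 for the others. The test among crosses gave 3 calls with DESeq2, 493 without the filter, and 0 to 1 with a replicate or cross left out. The single-cross tests gave 359 calls in all and 1864 without the filter. With each cross fitted alone the total stayed within 1.5 times, but 6 of 10 crosses moved by more. At Hot there were 77 calls without the filter and 29 to 142 with the libraries of 1 number left out, which kept 1 library for each cross and treatment. Treatment by temperature gave 35 calls with DESeq2, 136 without the filter and 1 to 16 with a number left out. The cause was not tested. In larvae a replicate block over libraries gave 6684 calls, against 6127 in the fit of sums and 6610 over libraries without the block. Same-numbered Hot and Ambient larval libraries did not deviate together (correlation -0.143 to 0.0686 over 30 pairs). That gave no sign of pairing by number but cannot exclude it, and juvenile titles carry no number. Depth limits models under a few CPM, since 1 count in a juvenile library is worth about as much.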
